A study of Mus musculus with 12 samples.

Results

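The 47 genes described here encode proteins that copy DNA or divide the copied chromosomes. They were taken as a list of names matched to the Ensembl identifiers of the count files. Of these genes, 19 act in replication and are called replication members, and 28 act in mitosis and are called mitosis members. The members of each kind were chosen with earlier results of these data known. Their counts set against all tested genes, and the contrast between the kinds, are therefore descriptions and not independent of these data. All 47 had a mean of 10 or more counts over the 12 libraries and all 47 passed the filter for testing, out of 35275 genes listed and 12849 tested. Among the replication members 16 are S-phase genes by their names, and Cdc6, Cdc45 and Dna2 were placed with them by function. The libraries came from bone marrow-derived macrophages (BMDMs), that is, bone marrow cells of wildtype mice cultured for 6 days with the cytokines IL4, IL10 and MCSF. The 3 groups were cultures with DMSO, the solvent control, with olaparib, an inhibitor of PARP enzymes, and with MNA, methyl-nicotinamide, with 4 libraries each. Every group received the same cytokines. The labels give no dose and no age or sex of the mice, and they do not say which animal a library came from. The p-values therefore measure the spread between these libraries, which may be partly technical. Each library is bulk RNA of a whole culture, in which fewer dividing cells and less RNA per dividing cell cannot be told apart.

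DNA replication starts from origins where the MCM helicase is loaded by Cdc6 and Cdt1, and geminin (Gmnn) blocks a further loading in the same cycle. PCNA, placed on DNA by the RFC clamp loader, holds the polymerases, while ribonucleotide reductase (Rrm1, Rrm2) and thymidylate synthase (Tyms) supply nucleotides. Mitosis is driven by cyclin B with Cdk1 and by the Plk1 and Aurora kinases, is held by the Bub1 checkpoint and ends through the anaphase-promoting complex and separase (Espl1). In cycling cells many replication genes are controlled by E2F factors through E2F sites, and many mitosis genes by the DREAM and MuvB complexes through a CHR element, often with CCAAT boxes for the factor NF-Y. Macrophage precursors from bone marrow divide in response to MCSF and divide less as they mature.

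The promoters of the 2 kinds of members differed in these letters. RefSeq promoter windows, 250 bases before to 50 bases after the start (build GRCm38.p6), were found for 39 of the 47 members, 15 replication and 24 mitosis members. Both strands were searched for E2F letters in the form TTCCCGC, in the form TTCGCGC, in the form TTGCCGC or in the form TTGGCGC. They were also searched for CHR letters, written TTTGAA in the common form and TTCGAA in the variant form, and for CCAAT. E2F letters were in the windows of 10 of 15 replication members (66.7%) and 3 of 24 mitosis members (12.5%), against 10.9% of the 27025 genes in the table. CHR letters showed the reverse order, in 4 of 15 replication members (26.7%) and 19 of 24 mitosis members (79.2%), against 21.7% of all genes. CCAAT was present in 66.7% of replication and 87.5% of mitosis members, against 41.1% of all genes. CHR letters together with CCAAT were in 26.7% of replication members, 79.2% of mitosis members and 8.61% of all genes. A match is a description of the letters and not a test of binding. The sequences below show the 250 bases before the start for the 2 replication and 2 mitosis members with the most matches, since they show how the letters are arranged in each kind. Capitals mark the matches, all sequences run 5′ to 3′ on the strand of the gene, and all 4 genes lie on the minus strand. The windows are chr1:128359706-128359955 for Mcm6, chr5:138171884-138172133 for Mcm7, chr11:99024190-99024439 for Top2a and chr10:69352913-69353162 for Cdk1.
Mcm6: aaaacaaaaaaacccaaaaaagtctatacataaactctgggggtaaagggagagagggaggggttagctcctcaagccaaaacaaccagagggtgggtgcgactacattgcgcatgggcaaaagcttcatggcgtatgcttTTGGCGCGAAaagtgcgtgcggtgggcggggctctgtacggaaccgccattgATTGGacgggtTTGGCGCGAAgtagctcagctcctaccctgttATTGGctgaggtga
Mcm7: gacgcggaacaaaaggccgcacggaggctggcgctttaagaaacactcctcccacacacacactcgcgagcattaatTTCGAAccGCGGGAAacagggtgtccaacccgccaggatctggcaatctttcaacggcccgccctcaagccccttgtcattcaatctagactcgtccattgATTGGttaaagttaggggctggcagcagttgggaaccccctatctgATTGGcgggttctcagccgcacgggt
Top2a: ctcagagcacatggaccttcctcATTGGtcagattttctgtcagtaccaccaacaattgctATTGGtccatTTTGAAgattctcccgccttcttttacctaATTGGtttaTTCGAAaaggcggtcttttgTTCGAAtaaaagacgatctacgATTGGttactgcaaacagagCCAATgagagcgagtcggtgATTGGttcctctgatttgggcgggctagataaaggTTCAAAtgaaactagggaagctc
Cdk1: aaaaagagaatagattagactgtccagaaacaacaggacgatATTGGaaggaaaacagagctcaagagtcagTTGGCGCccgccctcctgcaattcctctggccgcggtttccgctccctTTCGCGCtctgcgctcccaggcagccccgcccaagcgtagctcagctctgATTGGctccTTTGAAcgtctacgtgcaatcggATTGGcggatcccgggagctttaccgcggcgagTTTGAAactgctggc

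Mcm6 holds 4 E2F matches in these bases, as 2 pairs that overlap on opposite strands, and 2 CCAAT matches. Mcm7 holds 1 E2F, 1 CHR and 2 CCAAT matches. Top2a has 4 CHR and 6 CCAAT matches and no E2F match, and Cdk1 has 2 of the E2F, 2 of the CHR and 3 of the CCAAT letters. A further 1 match of Mcm6 and 3 of Mcm7 lie in the 50 bases after the start and are not shown. Ube2c had as many matches as Cdk1, and Cdk1 was taken by alphabet.

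The libraries held 21146291 to 31446849 counts, and the depths of the groups overlapped. On the first principal component of all tested genes, which held 49.8% of the variance, MNA replicate 2 lay among the DMSO libraries, at 35.97 against 33.64 to 43.68 for DMSO and −63.38 to −59.91 for the other MNA libraries. Leaving it out lowered the common dispersion of the fit from 0.0333 to 0.0123. Counts of calls, and most MNA values of the genes described, are therefore given with and without this library. Since 1 fit shares the spread, it also bears on olaparib against DMSO. The summed level of 8 macrophage markers was 3864 to 5000 CPM (counts scaled to a common library total) with DMSO, 8451 to 10185 with olaparib and 3588 to 7393 with MNA. With olaparib most of this sum was Lyz2 (5114 to 6559 CPM against 1625 to 2532 with DMSO, log2 fold change 1.65, called). Itgam, Mertk and Adgre1 also rose with olaparib (1.74, 1.16 and 1.02) and Cd68 fell (−0.55). Csf1r and Fcgr1 were not called with olaparib and Marco was not tested. With MNA only Csf1r was called (1.45). Without MNA replicate 2 Itgam rose with MNA too, and Cd68 and Fcgr1 fell. All 5 markers of granulocyte-monocyte progenitors, which divide, were at or under 3 counts in every DMSO and olaparib library. With MNA all 5 exceeded 3 counts in a library and their sum ran from 0 to 3.94 CPM, highest in MNA replicate 4. That library also had the highest sums of 7 erythroid markers (56.1 CPM against at most 3.94 in any other) and 8 neutrophil markers (80.1 CPM, range of olaparib 58.2 to 72.5, of DMSO 6.09 to 20.2). The sum of 7 early progenitor markers was 6.97 to 10.9 CPM with DMSO, 9.55 to 13.2 with olaparib and 9.31 to 11.7 with MNA. Its largest part was Gata2 (4.49 to 9.86 CPM), which was not called, nor were Meis1 and Cd27. Kit, Flt3 and Myb were not tested in the fit of 12 libraries. Cd34 was called higher with both treatments, from 0.0469 to 0.402 CPM with DMSO to 0.589 to 1.5 with olaparib. With MNA, Cd34 was at 3, 0.251, 1.81 and 2.49 CPM in replicates 1 to 4, with replicate 2 inside the DMSO range. The neutrophil sum with olaparib was nearly all Mmp8 (55.1 to 69.6 CPM, log2 fold change 3.41, called), while S100a9, Ly6g, Camp, Ngp and Retnlg had no more than 3 counts in any of the olaparib libraries. Eosinophil markers summed to 30.9 to 58.8 CPM with olaparib against 3.99 to 7.02 with DMSO, where Siglecf (3.28) and Ear6 (2.07) rose and Prg2, Epx and Prg3 had no more than 3 counts. T and NK cell markers summed to 11.2 to 18.8 against 2.48 to 3.92 CPM, mostly from Klrb1c (10.6 to 16 CPM with olaparib), with each of the other markers under 1 CPM in the olaparib libraries. Cd3e was called higher with both treatments (3.58 with olaparib, 4.16 with MNA), and with MNA Nkg7 rose (4.99) and Klrb1c fell (−0.79). B cell, stromal and mast cell markers summed to at most 6.95 CPM in any library. With MNA the B cell markers Cd79a, Cd79b and Ms4a1 (1.43, 2.47 and 1.60) and the stromal marker Pdgfrb (2.96) were called higher. The other markers of these lists were not tested in the fit of 12 libraries. The part of these cell types in the results was not tested.

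Of the members described, those that differed between olaparib and DMSO cultures were mainly mitosis members. Of the 28, 21 rose with olaparib and 0 fell at an adjusted p under 0.05, where 14.3% of all tested genes rose and 12.8% fell. Of the 19 replication members 5 rose and 1 fell. Since the members were chosen with earlier results of these data known, these shares describe them and are not an independent test. The median log2 fold change was 1.26 for mitosis members (range −0.27 to 2.58), 0.47 for replication members (−0.66 to 1.44) and 0.00 for all tested genes. In 23 mitosis members all 4 olaparib libraries lay above all 4 DMSO libraries, as in 7 replication members, against 20.7% of all tested genes. In 1 replication member, Cdt1, and in 0 mitosis members they all lay below, against 20.3% of all genes. Without MNA replicate 2, 27 mitosis members rose and 1 fell, and 10 replication members rose and 1 fell, with 22.5% and 21.2% of all genes rising and falling in that fit. With the replicate number as a block, which pairs the olaparib and DMSO libraries and also the MNA libraries by number, 27 mitosis and 8 replication members rose and Cdt1 fell. DESeq2 called 25 mitosis and 5 replication members higher. The shares of all genes were not counted for the block, for DESeq2 or for the other fits without 1 library. Those counts therefore have no background to be read against. The number of calls varied with the library left out. Over these fits the median log2 fold change of the mitosis members ran from 1.01 to 1.37. In the fit of the olaparib and DMSO libraries alone, 27 mitosis members rose and 1 fell, and 9 replication members rose and 1 fell. The share of all genes was not counted for that fit either. The fits named next all kept MNA replicate 2, which raised the shared spread. Mitosis members that rose numbered 7 without olaparib replicate 4, 8 without DMSO replicate 3, 9 without DMSO replicate 2 and 13 without olaparib replicate 1. Replication members that rose numbered 3 without olaparib replicate 4 and 3 without DMSO replicate 2. Of the 27 calls, 11 held with any 1 library left out, those of Pcna, Cdt1, Rfc2, Dna2, Ccnb2, Cdk1, Plk1, Kif18b, Kif20a, Espl1 and Cdca3.

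MNA gave fewer calls as long as all libraries were used. Against DMSO, 7 mitosis members rose and 0 fell, and 3 replication members rose and 1 fell, where 16.3% of all tested genes rose and 12.3% fell. The median log2 fold change was 0.86 for mitosis and 0.18 for replication members. The 4 MNA libraries lay wholly above DMSO in 0 mitosis members and 1 replication member (Rfc2), and wholly below in 0 mitosis members and 1 replication member (Rfc3), against 6.24% and 6.12% of all genes. Without MNA replicate 2, 22 mitosis members rose and 1 fell, and 9 replication members rose and 3 fell, against 27.2% and 26.9% of all genes in that fit. The medians were then 1.11 and 0.33. In 20 mitosis and 8 replication members the 3 remaining libraries lay above DMSO, and in 1 and 3 below, where 27.2% and 26.9% of all genes did. Without MNA replicate 3 or 4, 0 mitosis members and 1 replication member rose. Without MNA replicate 1, DMSO replicate 2 or DMSO replicate 3, 1 mitosis member rose, and without DMSO replicate 4, 2 did. Without olaparib replicate 4, 1 mitosis member (Tpx2) fell. The comparisons of olaparib and of MNA share the DMSO libraries, so their values are given side by side and not as independent evidence.

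The mean log2 level of the members in each library, set to 0 at the DMSO mean, shows the same spread. For the 28 mitosis members it was 0.46, −0.26, −0.55 and 0.36 in DMSO replicates 1 to 4. With olaparib it was 1.32, 0.93, 0.91 and 1.88, and with MNA 1.39, −0.22, 0.90 and 1.16. All olaparib libraries and 3 MNA libraries lay above the highest DMSO library, and MNA replicate 2 lay inside the DMSO range. For the 19 replication members the scores were 0.24, −0.13, −0.26 and 0.14 with DMSO and 0.39, 0.27, 0.25 and 0.68 with olaparib, and with MNA they were 0.43, −0.16, 0.25 and 0.31. The olaparib libraries again lay above DMSO, by a smaller margin. In each olaparib library the mitosis score exceeded the replication score, by 0.93, 0.66, 0.66 and 1.20, against 0.21, −0.13, −0.30 and 0.22 with DMSO. With MNA the excess was 0.96, −0.06, 0.65 and 0.86. These scores are descriptions, since the members were not drawn as a sample.

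**Figure D1:**
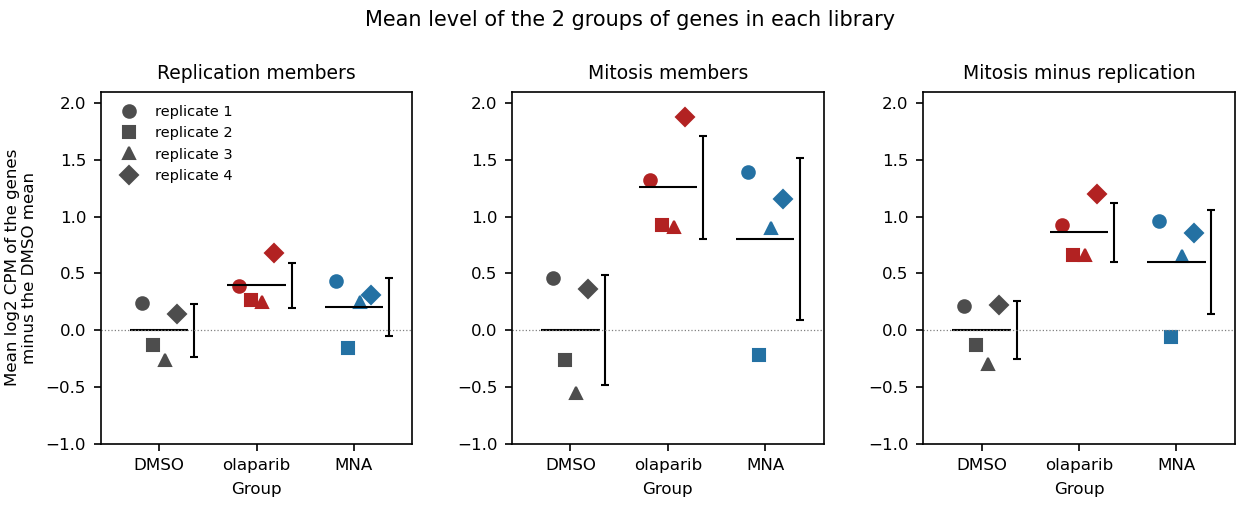
Mean log2 CPM of the 19 replication members, the 28 mitosis members, and the mitosis score minus the replication score (y axis, log2 units relative to the DMSO mean) in each of 12 libraries, with 1 marker shape per replicate number; the horizontal line is the group mean and the bar its SD (n = 4). The mitosis scores of olaparib run from 0.91 to 1.88 above a DMSO range of −0.55 to 0.46, and MNA replicate 2 stands at −0.22 among the DMSO libraries.

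The members moved together within the groups too. Olaparib replicate 4 was the highest olaparib library in 28 of 28 mitosis members and 17 of 19 replication members. DMSO replicates 1 and 4 were both above replicates 2 and 3 in 25 mitosis and 13 replication members. Among same-numbered libraries the mitosis score of olaparib exceeded that of DMSO by 0.86, 1.19, 1.46 and 1.52 for numbers 1 to 4, and the replication score by 0.15, 0.40, 0.51 and 0.54. For MNA these differences were 0.93, 0.04, 1.45 and 0.80 in the mitosis score. MNA replicate 2 lay within the DMSO range in 27 of 28 mitosis members and 12 of 19 replication members. Because the 28 genes share these library-wide shifts, their number does not add up to as many separate observations.

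**Figure D2:**
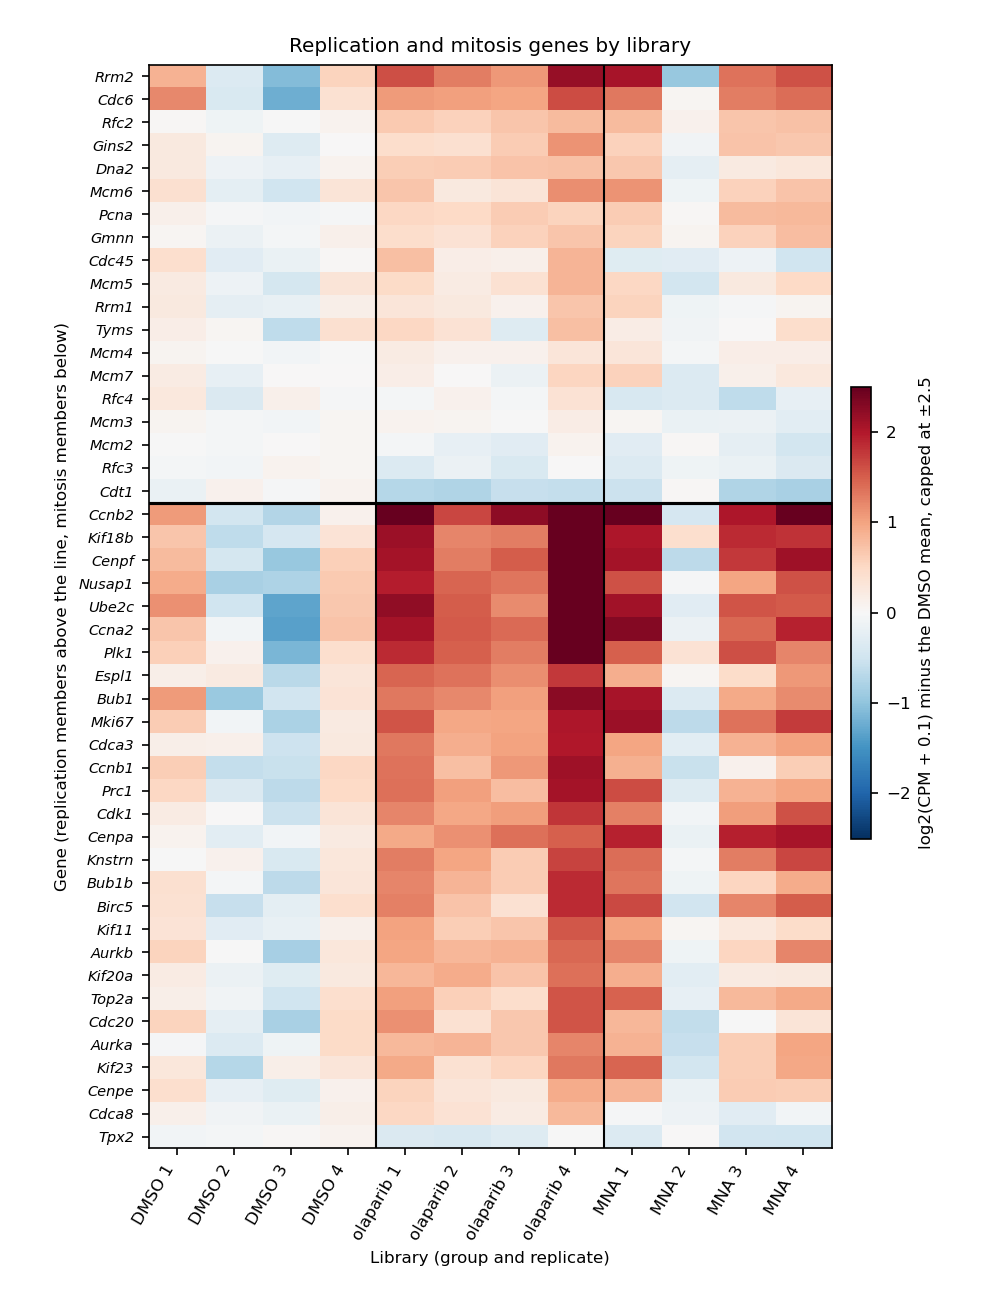
Level of each of the 47 genes (rows, ordered by the olaparib log2 fold change within the replication members above the line and the mitosis members below it) in the 12 libraries (columns); the colour is log2(CPM + 0.1) minus the DMSO mean, capped at 2.5 in either direction. The mitosis rows are red in the olaparib columns and in MNA replicates 1, 3 and 4, most deeply in olaparib replicate 4, while the column of MNA replicate 2 resembles DMSO and Cdt1 and Tpx2 are blue.

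The MCM helicase, whose 6 subunits unwind DNA at the fork, had log2 fold changes from −0.10 to 0.61 with olaparib and from −0.23 to 0.60 with MNA. By edgeR 0 of 6 subunits were called with olaparib or with MNA, and 1 and 0 of them had an unadjusted p under 0.05. DESeq2 also called 0 in each. The median log2 fold change was 0.17 in each comparison. Mcm2 (ENSMUSG00000002870, chromosome 6, 88883474 to 88898780) stood at 21.7, 21.2, 22 and 22.7 CPM with DMSO, at 21.1, 19.1, 17.9 and 23.4 with olaparib, and at 18, 22.3, 18.6 and 16 with MNA. Its groups overlapped, and the log2 fold change was −0.10 ± 0.11 (SE, adjusted p = 0.485) with olaparib and −0.23 ± 0.11 (adjusted p = 0.12) with MNA. Once MNA replicate 2 was left out the decrease with MNA was called (−0.32, adjusted p = 0.00921). Mcm6 had the largest change of the 6 with olaparib, with 14, 8.95, 7.47 and 13.3 CPM in DMSO and 17.1, 12.5, 13.3 and 23.7 with olaparib. Those groups overlapped (0.61 ± 0.28, adjusted p = 0.126), and the block gave a call for Mcm6 (adjusted p = 0.0253) and for Mcm5 (adjusted p = 0.0383). Mcm5 had 0.47 ± 0.23 with olaparib (adjusted p = 0.137) and 0.23 ± 0.23 with MNA (adjusted p = 0.457), or 0.40 with MNA without replicate 2. With MNA Mcm6 had 0.60 ± 0.29 (adjusted p = 0.12), or 0.79 without replicate 2. Mcm3, Mcm4 and Mcm7 had log2 fold changes of 0.08, 0.18 and 0.16 with olaparib and −0.13, 0.15 and 0.18 with MNA (−0.11, 0.20 and 0.33 without replicate 2, where Mcm4 was called). Mcm4, Mcm5 and Mcm6 rose with olaparib in the fit without MNA replicate 2, and there Mcm4 and Mcm6 rose with MNA. Of the 31-base words of the Mcm7 transcripts 26.8% also occur in other genes, foremost Gm5487.

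The genes that license and fire origins moved in opposite directions. Cdt1 (ENSMUSG00000006585, chromosome 8, 122568015 to 122573554), the loading factor that is destroyed once S phase starts, was at 34.5, 42.1, 38.1 and 41.2 CPM with DMSO and at 23.7, 23, 26.1 and 25.6 with olaparib. With MNA it was at 26.9, 39.4, 23 and 22. All olaparib libraries were below all DMSO libraries, as were MNA replicates 1, 3 and 4, whereas MNA replicate 2 was at the DMSO level. Cdt1 fell by 0.66 ± 0.16 on the log2 scale with olaparib (adjusted p = 0.00987, at most 0.0316 with any 1 library left out). With MNA it fell by 0.48 (adjusted p = 0.0376), a call that 9 of the 12 fits without 1 library lost, and by 0.70 without MNA replicate 2 (adjusted p = 1.68e-05). In the fit of 12 libraries Cdt1 was thus the only member called lower with either treatment. Most others had positive log2 fold changes. Without MNA replicate 2, Tpx2 also fell with both treatments, and Mcm2 and Rfc3 fell with MNA.

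Its inhibitor Gmnn (ENSMUSG00000006715, chromosome 13, 24751845 to 24761923) went the other way. It had 9.94, 8.7, 9.31 and 10.5 CPM with DMSO, 13.1, 12.3, 14.3 and 15.5 with olaparib, and 14.1, 10.1, 14.4 and 16.5 with MNA. The olaparib libraries and 3 of the MNA libraries were above DMSO. The log2 fold change was 0.52 ± 0.14 both with olaparib (adjusted p = 0.0173) and with MNA (adjusted p = 0.0224, 0.64 without MNA replicate 2). Without olaparib replicate 4 or DMSO replicate 2 the olaparib call was lost. Gins2, a subunit of the active helicase, rose with olaparib (0.68 ± 0.21, adjusted p = 0.0329, lost in 5 of 12 fits without 1 library), and with MNA only once replicate 2 was left out (0.66, adjusted p = 0.0063). Of its exonic bases 67.3% overlap Gse1 on the opposite strand. Cdc6 and Cdc45 were not called against DMSO in the fit of 12 libraries (1.01, adjusted p = 0.121, and 0.50, adjusted p = 0.0912, with olaparib). With MNA they had 0.90 (adjusted p = 0.15) and −0.33 (adjusted p = 0.242). Cdc45 also had −0.33 with MNA without replicate 2. Without MNA replicate 2, Cdc6 rose with olaparib (1.03) and with MNA (1.16).

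Of the clamp, loader and nuclease genes, 3 of 5 rose with olaparib. Pcna (ENSMUSG00000027342, chromosome 2, 132249162 to 132253314), the sliding clamp, was the most abundant member. It was counted at 245, 220, 214 and 219 CPM with DMSO, 319, 315, 348 and 331 with olaparib, and 350, 230, 387 and 393 with MNA. The olaparib libraries lay together above DMSO, and MNA replicate 2 alone of its group lay in the DMSO range. Pcna rose by 0.55 ± 0.14 with olaparib (adjusted p = 0.0125) and by 0.60 ± 0.14 with MNA (adjusted p = 0.016; 0.75 ± 0.07 without MNA replicate 2). The call with MNA was lost without MNA replicate 3 or 4. Of its 31-base words 23.3% also occur in other genes, foremost Pcna-ps2.

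Rfc2 (ENSMUSG00000023104, chromosome 5, 134581366 to 134601805), a clamp loader subunit, had the same pattern with less spread. Its levels were 25.6, 23.3, 24.9 and 26.5 CPM with DMSO, 39.6, 37.6, 40.8 and 43.3 with olaparib, and 43.6, 27, 40.6 and 41.6 with MNA. All treated libraries were above all DMSO libraries, MNA replicate 2 by the smallest margin. The changes were 0.69 ± 0.12 (adjusted p = 0.00291) and 0.61 ± 0.12 (adjusted p = 0.0142), and both calls held with any 1 library left out, which for MNA was the case for no other member. The subunit genes Rfc3 and Rfc4 were not called in the fit of 12 libraries. Rfc3 had a log2 fold change of −0.22 with olaparib (adjusted p = 0.136) and −0.24 with MNA (adjusted p = 0.0931), and Rfc4 by 0.09 and −0.41 (adjusted p = 0.729 and 0.0821; −0.43 with MNA without replicate 2). Rfc3 fell with MNA without replicate 2 (−0.29, adjusted p = 0.0321). The nuclease gene Dna2 rose with olaparib, from 10.3 to 14.2 CPM in the DMSO libraries to 18.3 to 19.9 (0.67 ± 0.16, adjusted p = 0.0113), and had 0.27 with MNA (adjusted p = 0.216; 0.40 and called without MNA replicate 2).

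For nucleotide supply, Rrm2 (ENSMUSG00000020649, chromosome 12, 24708241 to 24714146), the reductase subunit made in S phase, had the largest change of the replication members. Its DMSO levels were 9.47, 4.06, 2.38 and 7.59 CPM, those of olaparib 16, 12.6, 11 and 23.5, and those of MNA 21.8, 2.61, 13.4 and 15.7. The olaparib libraries did not overlap with DMSO, but the spread within the groups was wide. The log2 fold change was 1.44 ± 0.54 with olaparib (adjusted p = 0.0668; 0.0244 with the block and 0.00377 without MNA replicate 2). With MNA it was 1.20 ± 0.54 (adjusted p = 0.108), and 1.55 ± 0.36 without replicate 2 (adjusted p = 0.00253). Rrm1, the other subunit, and Tyms were not called in either comparison (0.34 each with olaparib, 0.13 and 0.10 with MNA, and 0.20 and 0.18 with MNA without replicate 2).

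Among mitotic cyclins and kinases all 7 rose with olaparib, by 0.89 to 2.58 on the log2 scale. Ccnb2 (ENSMUSG00000032218, chromosome 9, 70407692 to 70421547), a B-type cyclin, had the largest change of all 47 genes. It was at 1.88, 0.585, 0.469 and 0.921 CPM with DMSO, 5.65, 2.91, 4.33 and 9.48 with olaparib, and 5.39, 0.609, 3.71 and 5.23 with MNA. The lowest olaparib library was above the highest DMSO library, and again MNA replicate 2 alone of its group was within DMSO. The fold change was 5.96 with olaparib (log2 2.58 ± 0.62, adjusted p = 0.0115) and 3.96 with MNA (1.99 ± 0.62, adjusted p = 0.0354; 2.36 without replicate 2). The olaparib call held with any 1 library left out, and the MNA call was lost in 6 of 12 such fits.

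Plk1 (ENSMUSG00000030867, chromosome 7, 122159439 to 122169873), a kinase of mitotic entry and cytokinesis, was at 1.92, 1.34, 0.503 and 1.68 CPM with DMSO and 4.73, 3.65, 3.11 and 7.35 with olaparib. In the MNA libraries it was at 3.62, 1.61, 3.94 and 2.98. It rose by 1.80 ± 0.40 with olaparib (adjusted p = 0.00806) and by 1.16 ± 0.41 with MNA (adjusted p = 0.0496), the latter call being lost in 10 of 12 fits without 1 library. The change with MNA was 1.38 without MNA replicate 2 (adjusted p = 0.00567). Of its 31-base words 14.8% occur elsewhere, foremost in Plk-ps1. Cdk1, the kinase partner of these cyclins, rose from a mean of 6.73 ± 1.6 CPM (SD, n = 4) with DMSO to 16.2 ± 4.54 with olaparib (1.27 ± 0.31, adjusted p = 0.0124) and 13.9 ± 5.75 with MNA (1.05 ± 0.31, adjusted p = 0.0301; 1.30 without replicate 2). The MNA call for Cdk1 was lost in 6 of 12 fits without 1 library. Ccna2, whose product binds Cdk2 and Cdk1, rose by 1.80 with olaparib (adjusted p = 0.0254), and the Aurora kinase genes Aurka and Aurkb by 0.89 and 0.99 (adjusted p = 0.0462 and 0.0452). The Aurora calls were each lost in 8 of 12 fits without 1 library, and that of Ccna2 in 4. With MNA Ccna2, Aurka and Aurkb had 1.46, 0.57 and 0.76 and were not called (adjusted p = 0.0529, 0.161 and 0.102), and they rose by 1.78, 0.82 and 0.98 without replicate 2. DESeq2 called Ccna2 with MNA (adjusted p = 0.015). Ccnb1 and Ccnb2 were not compared with each other by a test. Ccnb1 rose by 1.34 ± 0.40 with olaparib (adjusted p = 0.0273). With MNA Ccnb1 had 0.26 ± 0.40 and was not called (adjusted p = 0.628), nor without MNA replicate 2 (0.49). The share of its words found in other genes, foremost Ccnb1-ps, is 27.7%.

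In the group of checkpoint and anaphase genes 4 of 6 rose with olaparib. Espl1 (ENSMUSG00000058290, chromosome 15, 102296266 to 102324357), which encodes separase, had 2.34, 2.48, 1.27 and 2.6 CPM with DMSO, 5.93, 5.5, 4.84 and 7.39 with olaparib, and 4.03, 2.18, 2.93 and 4.58 with MNA. Every olaparib library was above every DMSO and every MNA library. The rise with olaparib was 1.44 ± 0.27 (adjusted p = 0.00324), and with MNA the change was 0.66 ± 0.27 (adjusted p = 0.0807; 0.82 and called without MNA replicate 2). Cdca3, a cofactor of mitotic entry, Ube2c, the ubiquitin-conjugating enzyme of the anaphase-promoting complex, and the checkpoint kinase gene Bub1b rose by 1.38, 1.83 and 1.21 with olaparib (adjusted p = 0.00934, 0.0369 and 0.0273). The Ube2c call was lost in 6 of 12 fits without 1 library and that of Bub1b in 4. Bub1 and Cdc20, an activator of the complex, had similar sizes without a call by edgeR (1.42, adjusted p = 0.0664, and 0.94, adjusted p = 0.0816). Both rose with the block (adjusted p = 0.0139 and 0.0125) and by DESeq2 (adjusted p = 0.027 and 0.0458). With MNA edgeR and DESeq2 each called 0 of these 6 genes, of which 2 had an unadjusted p under 0.05 in edgeR, and 5 rose once replicate 2 was left out. Cdc20 was the exception, at 0.13 ± 0.38 and 0.34 ± 0.35.

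For centromere and chromosomal passenger genes the median change was 1.19 (log2) in either treatment, and 4 of 6 rose with olaparib and 2 of 6 with MNA (5 without MNA replicate 2). Cenpa (ENSMUSG00000029177, chromosome 5, 30666777 to 30674830), the histone H3 variant that marks centromeres, was at 14.9, 11.7, 13.4 and 16.4 CPM with DMSO and at 27.1, 30.8, 36.4 and 39.5 with olaparib. The MNA libraries had 53.4, 12.5, 54.1 and 58.9 CPM. Olaparib libraries formed a middle level, MNA replicates 1, 3 and 4 a higher one, and MNA replicate 2 lay with DMSO. Cenpa rose by 1.25 ± 0.36 with olaparib (adjusted p = 0.0237) and by 1.67 ± 0.36 with MNA (adjusted p = 0.0147; 1.98 ± 0.13 without replicate 2). Knstrn, a kinetochore protein gene, rose by nearly the same amount with both, 1.22 (adjusted p = 0.0211) and 1.21 (adjusted p = 0.0255; 1.47 without MNA replicate 2). Its MNA call was lost in 5 of 12 fits without 1 library, and the olaparib calls of Cenpa and Cenpf in 4 and 5. Cenpf rose by 1.92 with olaparib (adjusted p = 0.0318) and had 1.60 with MNA (adjusted p = 0.0597; 1.96 and called without replicate 2), from a level of only 0.335 to 1.36 CPM in DMSO. Birc5 (survivin) had 1.16 in each comparison and was not called in either (adjusted p = 0.0757 and 0.0696), and Cenpe had 0.52 and 0.51 (adjusted p = 0.118 and 0.113). With the block both rose with olaparib (adjusted p = 0.0212 and 0.0485), and without MNA replicate 2 both rose with olaparib and with MNA (1.47 and 0.69 with MNA). DESeq2 called Birc5 with olaparib and with MNA (adjusted p = 0.036 and 0.0331) and Cenpf with MNA (adjusted p = 0.022).

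Cdca8 (ENSMUSG00000028873, chromosome 4, 124918465 to 124939311), which encodes borealin, a partner of Aurora B and survivin, was raised by olaparib and not by MNA. Its DMSO libraries had 12.3, 10.6, 10 and 12.5 CPM, the olaparib libraries 16.3, 14.5, 13.1 and 20, and the MNA libraries 11.1, 10.4, 9.22 and 10.7. All olaparib libraries were above the rest, and DMSO and MNA overlapped. It rose by 0.49 ± 0.13 with olaparib (adjusted p = 0.0175), and its change with MNA was −0.13 ± 0.13 with or without replicate 2 (adjusted p = 0.464 and 0.446, SE 0.14 without it).

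Of the spindle motors and organisers, 5 of 7 rose with olaparib. Kif18b (ENSMUSG00000051378, chromosome 11, 102905529 to 102925124), a motor on astral microtubules, was the lowest member, with a mean of 40.2 counts and 8 counts in its lowest library. It had 0.844, 0.275, 0.335 and 0.635 CPM with DMSO, 1.26 to 4.18 with olaparib, and 2.26, 0.68, 2.01 and 1.93 with MNA. Olaparib did not overlap with DMSO, and MNA replicate 2 again did. Kif18b rose by 2.16 ± 0.51 with olaparib (adjusted p = 0.0102) and by 1.73 ± 0.51 with MNA (adjusted p = 0.0299; 2.01 without replicate 2), the latter call being lost in 6 of 12 fits without 1 library. Kif11 and Kif20a, motors of the spindle poles and of cytokinesis, rose by 1.02 and 0.99 with olaparib (adjusted p = 0.0146 and 0.0122), and Prc1 and Nusap1, which bundle spindle microtubules, by 1.34 and 1.91 (adjusted p = 0.032 and 0.0188). With MNA these 4 genes had 0.48, 0.33, 0.87 and 1.02 and were not called. Without replicate 2 they had 0.61, 0.49, 1.14 and 1.29, of which Prc1 and Nusap1 were called. Kif23, a motor of cytokinesis, had 0.83 with olaparib (adjusted p = 0.121; 0.0244 with the block) and 0.77 with MNA (adjusted p = 0.134), and rose in both without MNA replicate 2.

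Tpx2 (ENSMUSG00000027469, chromosome 2, 152847964 to 152895321), an activator of Aurora A, was the only mitosis member whose log2 fold change with olaparib was negative. Its levels were 30.8, 30.9, 32.7 and 34.1 CPM with DMSO, 25, 24.4, 25.8 and 31.7 with olaparib, and 25.2, 32.3, 23.1 and 22.6 with MNA. Olaparib replicate 4 and MNA replicate 2 reached the DMSO range and the other treated libraries were below it. The changes were −0.27 ± 0.12 with olaparib (adjusted p = 0.106) and −0.32 ± 0.12 with MNA (adjusted p = 0.0593). DESeq2 called the decrease with MNA (adjusted p = 0.0426). Tpx2 fell in both without MNA replicate 2 (−0.27, adjusted p = 0.0171, and −0.44, adjusted p = 0.000886). Its level per kilobase of exon in DMSO (6.87 CPM per kb) was the highest of the mitosis members, whose median was 0.678 and lowest 0.0548 (Cenpf).

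The proliferation marker Mki67 (ENSMUSG00000031004, chromosome 7, 135689784 to 135716361) and Top2a, a topoisomerase that untangles chromosomes, followed the majority. Mki67 had 14.9, 9.12, 5.49 and 11.1 CPM with DMSO, 28.6, 18.8, 19.1 and 39.2 with olaparib, and 42.2, 6.05, 24.6 and 32.2 with MNA. The highest DMSO library was below the lowest olaparib library and below 3 MNA libraries. The fold changes of 2.62 with olaparib and 2.6 with MNA were just past the threshold (adjusted p = 0.0489 and 0.0491), and the calls were lost in 9 and 11 of the 12 fits without 1 library. In the fit without MNA replicate 2 the adjusted p was 0.00143 and 0.00029. Top2a had 0.94 ± 0.33 with olaparib (adjusted p = 0.054; 0.0193 with the block) and 0.84 ± 0.34 with MNA (adjusted p = 0.0746), and without MNA replicate 2 it rose in both (0.95 and 1.07). DESeq2 called Top2a with olaparib and with MNA (adjusted p = 0.0167 and 0.0337).

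**Figure D3:**
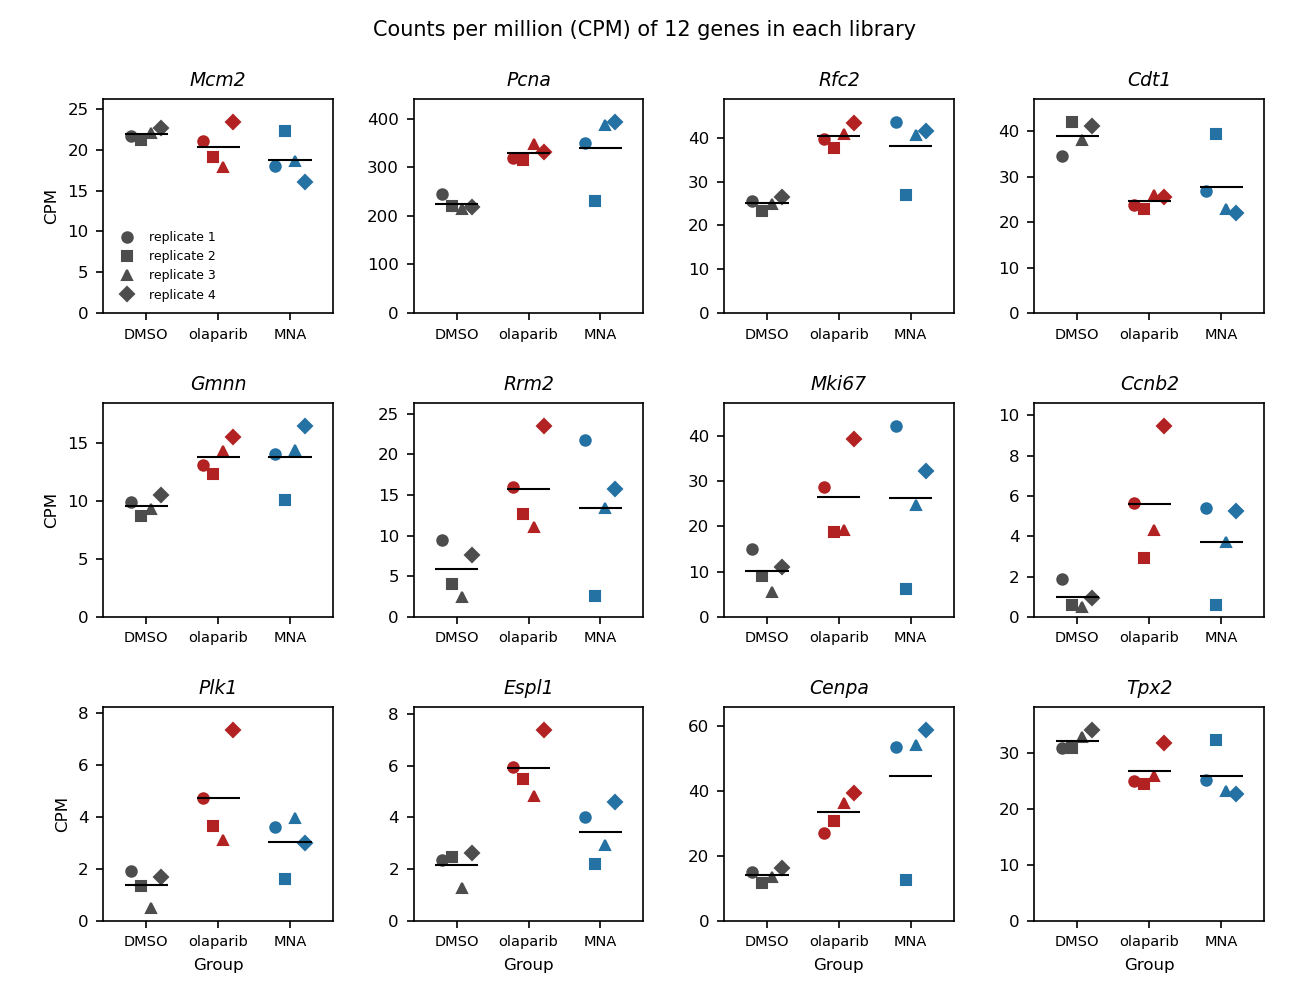
Level in CPM (y axis from 0) of 12 of the genes in each of the 12 libraries, by group and with 1 marker shape per replicate number; the line is the mean of 4 libraries. For Ccnb2, Plk1, Espl1, Pcna and Rfc2 the olaparib libraries are above all DMSO libraries, Cdt1 is below them, and the square of MNA replicate 2 lies near DMSO in most panels.

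**Figure D4:**
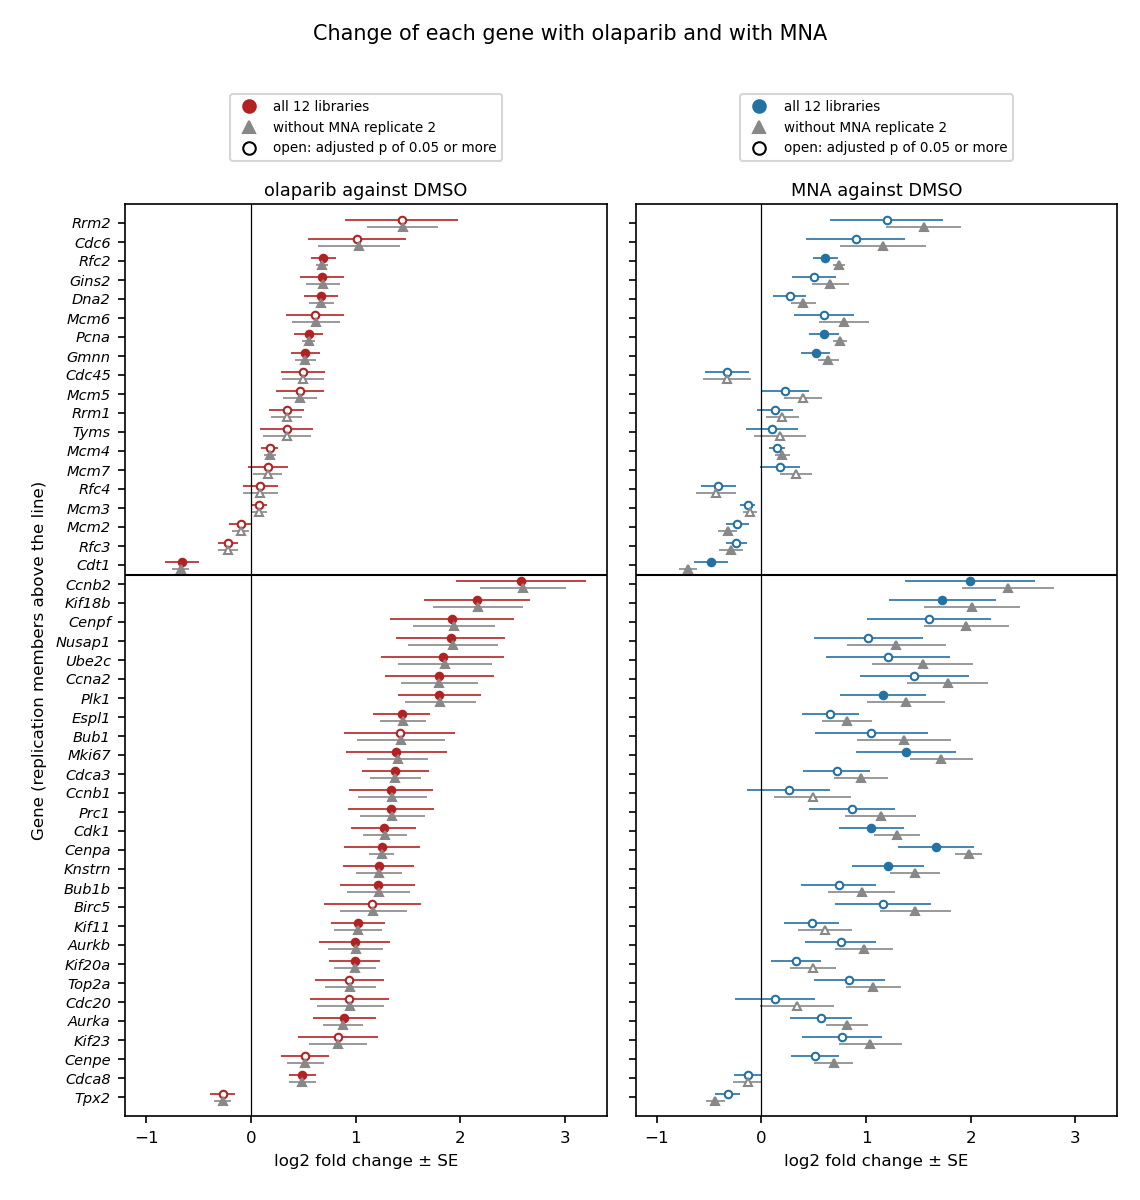
Log2 fold change ± SE of the 47 genes with olaparib (left) and MNA (right) against DMSO, replication members above the line and mitosis members below, with all 12 libraries (circles) and without MNA replicate 2 (triangles); filled symbols have an adjusted p under 0.05. Most mitosis members lie between 0.5 and 2, Tpx2 and Cdt1 lie below 0, and leaving out MNA replicate 2 narrows most errors in both panels.

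The treatments themselves differed at few members. Against MNA, 1 replication member (Cdc45) and 2 mitosis members (Espl1 and Cdca8) were higher with olaparib and 0 were lower, where 10.9% of all tested genes were higher and 10.9% lower. Cdc45 (ENSMUSG00000000028, chromosome 16, 18780447 to 18811987), a part of the active helicase, had 7.03, 4.64, 4.54 and 7.49 CPM with olaparib and 3.33, 3.37, 3.78 and 2.9 with MNA. These groups did not overlap (0.83 ± 0.21, adjusted p = 0.0157), a call lost without olaparib replicate 4. The DMSO libraries, at 5.58, 3.37, 3.65 and 4.25 CPM, overlapped both treatments, and neither treatment was called against DMSO. Cdca8 was higher by 0.62 ± 0.13 (adjusted p = 0.00657), which held with any 1 library left out. For Espl1 the difference was 0.79 ± 0.26 (adjusted p = 0.0492), lost in 9 of 12 such fits. Without MNA replicate 2, the replication members Cdc45, Mcm3 and Rfc4 were higher with olaparib, and Pcna was lower (−0.20, adjusted p = 0.0255). In the same fit without MNA replicate 2, the mitosis members Espl1 and Cdca8 were higher and Cenpa was lower (−0.73 ± 0.12, adjusted p = 0.000309). There 21.5% of all genes were higher and 20.7% lower, and the libraries of 23.5% and 22.8% of all genes did not overlap. The medians over the members were 0.12 for replication and 0.40 for mitosis, and 0.04 and 0.17 without MNA replicate 2. Leaving out MNA replicate 1 gave 3 replication members higher, and leaving out DMSO replicate 2 gave 2. For the other members a difference between the treatments was not detected, which does not show that they acted alike.

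Other genes of the same processes were taken from further lists. Their counts are to be read against all tested genes, of which 14.3% rose and 12.8% fell with olaparib and 16.3% and 12.3% with MNA, or 22.5%, 21.2%, 27.2% and 26.9% without MNA replicate 2. Of 37 tested further replication genes 5 rose and 1 fell with olaparib (11 and 1 without MNA replicate 2) and 4 rose and 1 fell with MNA (18 and 5). The shares that rose with all libraries were near or under those of all genes. Their median log2 fold changes were 0.16 and 0.23. Dut, which removes dUTP, rose with olaparib from 24.6 to 44.2 CPM (0.85 ± 0.12, adjusted p = 0.000874), and Mcm10 and Clspn rose by 1.35 and 1.38 (adjusted p = 0.0227 and 0.0231). With MNA the smallest p belonged to Rfc5, a further clamp loader subunit (0.60, adjusted p = 0.0224), Dnmt1 (−0.41, adjusted p = 0.0241) and Timeless (0.84, adjusted p = 0.0289), with 0.77, −0.51 and 0.98 without replicate 2. Of 59 further mitosis genes 17 rose and 1 fell with olaparib (35 and 1 without MNA replicate 2) and 3 rose and 0 fell with MNA (26 and 0), with medians of 0.78 and 0.39. Gtse1, a microtubule-binding protein, rose from 2.18 to 2.83 CPM in the DMSO libraries to 9.36 to 13.5 with olaparib (2.06 ± 0.24, adjusted p = 0.000221) and by 0.88 with MNA (adjusted p = 0.0243; 1.07 without replicate 2). Hmmr and Cdc25b rose with olaparib (1.64 and 0.71), and Cks2 and Spag5 with MNA (0.80 and 1.10), also without replicate 2.

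Regulators of the cycle were less uniform. Of 21 transcription factors and pocket proteins 5 rose and 3 fell with olaparib (8 and 3 without MNA replicate 2), and 4 rose and 0 fell with MNA (7 and 4). By the shares of all genes just given, several of these counts are near the background. E2f2, an activating E2F, was at 4.5, 5.02, 3.55 and 5.24 CPM with DMSO, 11.2, 9.16, 8.96 and 14.7 with olaparib, and 3.74, 4.15, 1.62 and 3.02 with MNA. It rose with olaparib, where the libraries did not overlap with DMSO (1.27 ± 0.26, adjusted p = 0.00482), and had −0.55 ± 0.26 with MNA (adjusted p = 0.126; −0.72, adjusted p = 0.031 without replicate 2). E2f1 had 0.33 with olaparib (adjusted p = 0.202) and rose with MNA (0.69, adjusted p = 0.0231; 0.88 without replicate 2). Foxm1, an activator of mitosis genes, rose with olaparib (0.60 ± 0.21, adjusted p = 0.0492) and had 0.13 with MNA (adjusted p = 0.638; 0.30 without replicate 2), and Mybl2 was not called (0.79, adjusted p = 0.0898, and 0.47, adjusted p = 0.276; 0.68 with MNA without replicate 2). Tfdp2, Rb1 and Rbl2 rose with both treatments by 0.25 to 0.49, and E2f5, Tfdp1 and Rbbp4 fell with olaparib (−0.48, −0.24 and −0.20).

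Of 17 cyclins, kinases and inhibitors of the G1 to S step 6 rose and 3 fell with olaparib (9 and 4 without MNA replicate 2), and 4 rose and 3 fell with MNA (5 and 5, near the shares of all genes in that fit). The D-type cyclin genes Ccnd2 and Ccnd3 rose with both, by 1.53 and 1.11 with olaparib (adjusted p = 0.0214 and 0.0398) and by 2.56 and 1.70 with MNA (adjusted p = 0.0142 and 0.0144; called also without replicate 2). Cdkn1a, which encodes the inhibitor p21, went in opposite directions. It had 400, 424, 378 and 392 CPM with DMSO, 563, 556, 540 and 573 with olaparib, and 253, 394, 238 and 235 with MNA. All olaparib libraries were above DMSO and 3 MNA libraries were below, with MNA replicate 2 inside the DMSO range. Cdkn1a rose by 0.49 ± 0.14 with olaparib (adjusted p = 0.024) and fell by 0.51 ± 0.14 with MNA (adjusted p = 0.0247; by 0.72 without replicate 2). Cdkn2a and Cdkn2b, inhibitors of Cdk4 and Cdk6, fell with olaparib (−1.77, adjusted p = 0.000406, and −0.82, adjusted p = 0.00541) and had 0.20 and 0.27 with MNA (adjusted p = 0.501 and 0.22; 0.08 and 0.20 without replicate 2). Ccne1, Cdkn1c and Cdkn2d rose with olaparib by 0.47, 1.42 and 0.51, and Cdkn1b fell by 0.39. With MNA Cdk2 and Cdc25a rose by 0.41 and 0.35, and Cdk4 and Cdk6 fell by 0.47 and 0.59 (by 0.66 and 0.77 without replicate 2, where Cdk2 and Cdc25a had 0.51 and 0.39).

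Levels per kilobase of exon in DMSO ranged from 0.267 CPM per kb (Cdc6) to 93.4 (Pcna) among replication members, with a median of 3.15, above the median of 0.678 for mitosis members. Other limits of single genes were reads that could belong elsewhere. Of the 31-base words of Cdc20 25.5% and of Rrm2 12% occur in another gene, mainly in Gm7856 and Gm48455. Exons on the opposite strand cover 29.3% of the exonic bases of Kif20a (Cdc23), 22.8% of Ube2c (Tnnc2), 15.1% of Rfc2 (Lat2), 12.7% of Rfc4 (Eif4a2), 12.5% of Ccna2 (Exosc9) and 11.1% of Prc1 (Rccd1). Which strand setting the deposited counts used is not given in the sources used here, so these 7 genes, Gins2 included, are uncertain to that extent.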

How the data were processed

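RNA of 12 BMDM cultures was sequenced from stranded mRNA libraries. Per the labels, the authors aligned reads with STAR 2.5.2b to GRCm38.p5 (mm10), used DESeq2 in R 3.6.0, and deposited whole-number counts per gene for each library, not normalized. The strand setting of these counts is not given in the sources used here. Groups came from the sample labels. Genes were kept by filterByExpr (minimum count 10, minimum total 15), scaled by TMM and tested with edgeR 4.0.16 (R 4.3.3), using the quasi-likelihood test with Benjamini-Hochberg adjustment over all tested genes, in 1 fit of 12 libraries without a replicate block. An adjusted p under 0.05 is a call, and values after ± are SE for log2 fold changes and SD for CPM. CPM use TMM-scaled totals, and library scores average log2 CPM with a prior count of 2. The 2 kinds of members and the other lists were chosen with earlier results of these data known. All 47 members are accounted for, and of the further replication and mitosis genes the 3 with the smallest p in each treatment against DMSO are named. Deviations from the group means correlated between same-numbered olaparib and DMSO libraries at r = 0.227, 0.172, 0.225 and 0.408 over 12849 genes. Unlike numbers gave −0.274 to 0.098. The numbers were therefore taken to pair these libraries in the block, while the main fit was unpaired. The block was fitted to all 12 libraries, so it also placed the MNA libraries, replicate 2 included, by number. The alternatives were DESeq2 1.42.0, other normalizations and filters, the fit of the compared groups alone, a stricter threshold, a replicate block, each library left out in turn, and a replication group without Cdc6, Cdc45 and Dna2. The block together with leaving out MNA replicate 2 was added after seeing the data. The edgeR and DESeq2 fits were tested on simulated data. Summaries, word sharing and promoter matches were computed in Python 3.11.15, with promoter windows from RefSeq.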

Additional observations from a re-analysis of the deposited data

Results flagged for a closer look

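Over the 47 members and 3 library scores in each group of 4 libraries, 10 of 150 sets of values held a library far from the others, its gap to the nearest library divided by the range of the group passing Dixon's critical value for 4 samples. Chance alone gives about 1 in 20 such cases. Of the 10, 7 were MNA replicate 2 as the lowest MNA library: Cenpa (0.936), Cdc6 (0.918), Cdca3 (0.882), Cenpf (0.873), Kif18b (0.8645), Rfc2 (0.852) and Gins2 (0.8293). This is the library that lay with DMSO on the first principal component, and its Cenpa level was 12.5 CPM against 53.4 to 58.9 in the other MNA libraries. The others were olaparib replicate 4 as the highest for Cdc6 (0.867), DMSO replicate 2 as the lowest for Kif23 (0.851) and DMSO replicate 3 as the lowest for Espl1 (0.852).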

How the results depend on the processing

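No call changed sign, and the medians moved by less than the spread between replicates. The replication median for olaparib against MNA, 0.12, was −0.01 without olaparib replicate 4, and no other median changed sign. The number of calls depended on the fit. The shares of all genes called were counted only in the main fit of 12 libraries and in the fit without MNA replicate 2. For olaparib against DMSO, replication members called higher numbered 5, and 9 in the fit of the 2 groups alone, 8 with the replicate block, 12 with the replicate block and without MNA replicate 2, 1 at an adjusted p under 0.01 and 3 to 10 with 1 library left out. Mitosis members called higher numbered 21, and 3 at an adjusted p under 0.01 and 7 to 27 with 1 library left out. Mitosis members called lower numbered 0, and 1 in the fit of the 2 groups alone, 1 with the block and without MNA replicate 2, and 0 to 1 with 1 library left out. For MNA against DMSO, same-numbered deviations correlated at 0.242, 0.114, −0.009 and 0.277, and for olaparib against MNA at 0.07, 0.137, 0.131 and 0.392. Unlike numbers reached 0.153 for MNA and DMSO and 0.14 for olaparib and MNA. In each, 3 of 4 same-numbered pairs were over 0.1, so that pairing was not established and remains possible. For MNA against DMSO the counts were 3 higher and 1 lower for replication, and 7 higher and 0 lower for mitosis members. The fit of the 2 groups alone gave 0, 0 and 0 for replication higher, replication lower and mitosis higher, as did an adjusted p under 0.01. The block gave 18 mitosis members higher. The block without MNA replicate 2 gave 10 and 4 replication members and 23 and 1 mitosis members, and DESeq2 gave 11 and 1 mitosis members. With 1 library left out the ranges were 1 to 9, 0 to 3, 0 to 22 and 0 to 1. For olaparib against MNA, replication members called higher numbered 1, and 3 by DESeq2, 3 at a mean of at least 50 counts, 2 with the block, 4 with the block and without MNA replicate 2, 0 at an adjusted p under 0.01, 0 without Cdc6, Cdc45 and Dna2, and 0 to 3 with 1 library left out. Mitosis members called higher numbered 2, and 4 by DESeq2, 6 with the block, 7 with the block and without MNA replicate 2, and 1 each in the fit of the 2 groups alone, with library totals only, with no filter on low counts, with upper-quartile normalization and at an adjusted p under 0.01, and 1 to 2 with 1 library left out. Members called lower numbered 0 of either kind, 1 of each with the block and without MNA replicate 2, and 0 to 1 with 1 library left out. The causes were not tested. With 8 counts in its lowest library for Kif18b and a median of 80 over the members, the members with fewest counts are limited most by depth.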
